A study of Mus musculus with 15 samples.

Results

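Interferon response genes are the genes that cells switch on when interferon reaches them, and 8 of them were followed here in mouse prostate epithelial cells: Ifit1, Ifit2, Ifit3, Rsad2, Ifitm3, Isg15, Oasl2 and Irf7. The members were taken by name, and each was read from the probe sets that the platform annotation assigns to that gene alone, using the brightest by mean where there were several. Of the 8 genes, 7 had such a probe set, out of 19938 genes measured in this way in the whole series. Isg15 was covered only by a probe set shared with the predicted gene Gm9706, so its values are given in the closing section and it enters no count or test.

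The arrays came from ventral prostate epithelial cells of FVB mice. The 4 transformed groups carried c-myc (Myc), neuT (NeuT), ha-ras (Ras) or v-src (Src), each with 3 arrays, and the control group held 3 arrays of primary cultures with no transduced gene. The series' design text gives 3 lines to each oncogene, so the arrays of one oncogene are taken as different lines, while nothing says whether the control arrays came from separate animals. The transformed lines grew in DMEM with 10% FBS, whereas the control cultures grew in a medium for primary epithelium and were moved to the serum medium the night before harvest, so transformation and the earlier medium cannot be told apart in any comparison with control. Values are the authors' log2 expression values, and differences are on the log2 scale. The median of all gene values was 6.47, so a level near or below 6 lies among the dimmer genes of the array. Each array averages a culture, so a few strongly expressing cells and many weakly expressing cells cannot be told apart.

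The epithelial label was checked first. The mean of the 8 prostate epithelial markers (keratins, Trp63, Cdh1 and Epcam) ranged over 9.44 to 9.49 in Myc, 8.83 to 8.94 in NeuT, 5.80 to 6.50 in Ras, 10.18 to 10.39 in Src and 10.57 to 10.99 in control arrays. All 8 fell in Ras lines against control by limma's adjusted p, with a median difference of −5.24, beside 14.2% of all genes that fell, and the mean of these defining markers there lay near or below the median of all gene values. Ras array 3 and control array 3 stood apart and touch the results below. Control array 3 had a mean of 10.34 over 6 kidney tubule markers, against at most 5.67 in every other array, and 6.99 over 6 endothelial markers, against at most 5.39. Results are given with all arrays and without Ras array 3, and without both where that matters. The members were chosen with the high member values of Ras array 3 known. Leaving that array out therefore removes high values by choice, which lowers the Ras differences of the members and narrows their shared spread. For the members, p-values without it are descriptions and not independent tests, most of all in Ras contrasts.

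Type I interferons bind the receptor made of Ifnar1 and Ifnar2, and the kinases Jak1 and Tyk2 then pass the signal to a transcription factor complex that includes Stat2 and Irf9 and binds a DNA element called the interferon-stimulated response element. Interferon gamma uses its own receptor, Ifngr1 and Ifngr2, with Jak1 and Jak2, and acts mainly through another element, the gamma-activated site. Cells start interferon production when sensors such as the RNA receptors encoded by Ddx58 (RIG-I) and Ifih1 (MDA5), or the DNA sensor encoded by Cgas, detect nucleic acid.

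The promoters of the members show which of them carry the letters of that response element. RefSeq promoter windows (GRCm38.p6), from 250 bases before to 50 bases after each annotated start, were found for all 7 measured members and searched on both strands for the core of the interferon-stimulated response element, which is GAAA, any 2 bases and GAAA again. It was present in 4 of the 7 members, in 12 of 28 other interferon-stimulated genes with a window, and in 3.89% of 15614 tested genes with a window. Ifit1 and Ifit3 are shown because each carried 2 copies close to each other before the start, Rsad2 because it carried 1 copy, and Ifitm3 because its 2 copies lay just after the start. The first 3 lines are the 250 bases before the start at chr19:34640639-34640888 (plus strand), chr19:34583279-34583528 (plus strand) and chr12:26456453-26456702 (minus strand), and the last is the stretch with both matches at chr7:141010716-141010742 (minus strand). All are written 5′ to 3′ in the direction of the gene, and capitals mark the matches, which read TTTC at their left end where they lie on the other strand.
Ifit1: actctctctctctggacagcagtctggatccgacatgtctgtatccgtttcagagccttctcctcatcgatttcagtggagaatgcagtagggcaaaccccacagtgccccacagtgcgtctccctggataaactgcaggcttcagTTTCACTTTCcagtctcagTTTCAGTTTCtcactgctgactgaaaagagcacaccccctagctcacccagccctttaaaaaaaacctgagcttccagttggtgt
Ifit3: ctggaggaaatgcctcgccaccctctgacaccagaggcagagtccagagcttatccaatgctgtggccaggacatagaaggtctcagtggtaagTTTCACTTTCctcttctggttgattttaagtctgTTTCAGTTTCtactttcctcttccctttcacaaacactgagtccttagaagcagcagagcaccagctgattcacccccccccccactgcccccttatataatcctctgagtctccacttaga
Rsad2: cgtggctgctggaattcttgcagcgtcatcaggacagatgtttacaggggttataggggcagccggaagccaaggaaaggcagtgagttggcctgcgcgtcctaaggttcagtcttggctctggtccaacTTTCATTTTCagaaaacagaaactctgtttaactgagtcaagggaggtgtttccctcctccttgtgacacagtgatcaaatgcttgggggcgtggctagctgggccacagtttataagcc
Ifitm3: GAAAAGGAAActtctgaGAAACCGAAA
The matches of Ifit1 began 104 and 85 bases before the start base, those of Ifit3 156 and 122 bases before it, and that of Rsad2 120 bases before it. The windows of Ifit2, Oasl2 and Irf7 did not hold these letters. The core of the gamma-activated site, TTCNNNGAA, was found in the windows of Ifit2 and Ifitm3, 2 of 7 members, against 8.99% of tested genes. A match is a run of letters in the window and was not tested for binding.

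In the arrays, the 7 genes followed 2 courses. Ifit1, Ifit3, Rsad2, Oasl2 and Irf7 lay near or below their control levels in the transformed arrays and well above them in a single one, Ras array 3. Ifit2 and Ifitm3 instead differed between oncogenes in all 3 arrays of a group, and did so in different ways. With Ras array 3 set aside, Ifit1, Ifit3 and Rsad2 also differed between some oncogenes, as given below.

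**Figure D1:**
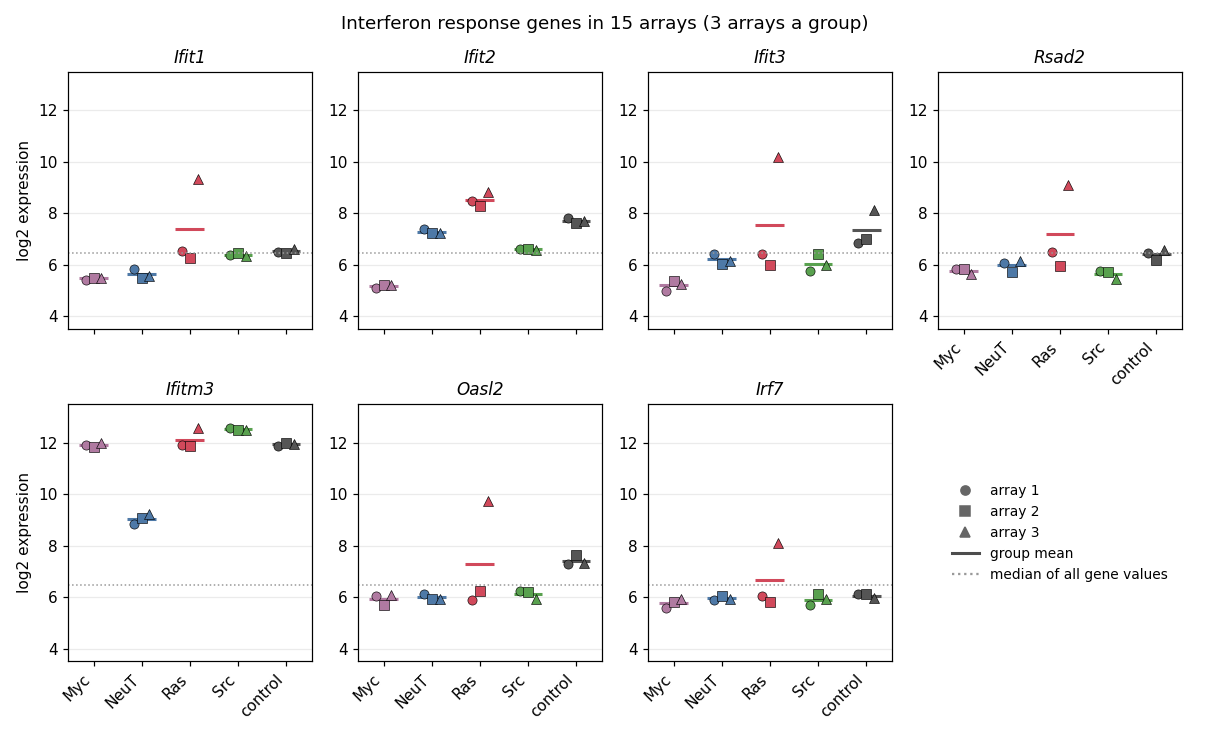
Log2 expression of the 7 measured interferon response genes in 15 arrays, with the groups on the horizontal axis, 1 point per array, a bar at each group mean and a dotted line at the median of all gene values (6.47). Ras array 3 (red triangle) was the highest array for all 7 genes, by 0.00395 for Ifitm3 and by 2.04 for Ifit3, while NeuT was lowest for Ifitm3 and Myc lowest for Ifit2.

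Ifit1, Ifit2 and Ifit3 encode related proteins with tetratricopeptide repeats that bind viral RNA or restrain its translation. Ifit1 measured 5.41, 5.49 and 5.48 in Myc, 5.82, 5.46 and 5.57 in NeuT, 6.53, 6.26 and 9.32 in Ras, 6.38, 6.44 and 6.35 in Src and 6.49, 6.45 and 6.61 in control arrays. Myc and NeuT arrays all lay below the control arrays, and Src arrays lay just below them. With all 15 arrays the difference from control was −1.06 ± 0.53 (SE) in Myc (limma adjusted p = 0.172) and −0.90 ± 0.53 in NeuT (adjusted p = 0.265). The 5 groups share one estimate of the spread, and the distance of Ras array 3 from its group entered that estimate. Without Ras array 3 the differences were the same and their SE was 0.10, with adjusted p = 3.66e-06 in Myc and 1.59e-05 in NeuT, while Src (−0.13 ± 0.10, adjusted p = 0.347) and the other 2 Ras arrays (−0.12 ± 0.11, adjusted p = 0.449) did not pass. In the order control, Src and Ras, NeuT and Myc, the step between Src and NeuT was the one between neighbours that passed.

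Ifit3 measured 4.98, 5.35 and 5.23 in Myc, 6.41, 6.03 and 6.15 in NeuT, 6.43, 5.997 and 10.18 in Ras, 5.74, 6.40 and 5.97 in Src and 6.84, 7.01 and 8.14 in control arrays. Every transformed array other than Ras array 3 lay below every control array. It fell in Myc, with a difference of −2.14 ± 0.76 (adjusted p = 0.0495), with all arrays, and the other 3 contrasts did not pass. The Myc call lay close to the threshold and was lost in 12 of the 15 fits that each left out 1 array, with adjusted p of up to 0.133. When Ras array 3 was left out it fell in all 4 groups, with differences of −2.14 ± 0.28 in Myc, −1.13 ± 0.28 in NeuT, −1.12 ± 0.32 in Ras and −1.29 ± 0.28 in Src and adjusted p between 6.65e-05 and 0.0183. Control array 3 was 1.21 above the mean of the other control arrays for this gene. Without both arrays the differences were −1.74 in Myc, −0.73 in NeuT, −0.71 in Ras and −0.89 in Src, with adjusted p between 3.92e-06 and 0.0149. Below control, no step between neighbours in the order Ras, NeuT, Src and Myc passed without Ras array 3, and Src minus Myc came closest (0.85 ± 0.28, adjusted p = 0.0507). That step passed without both arrays (0.85 ± 0.16, adjusted p = 0.00132). Of the wider steps without Ras array 3, Myc minus NeuT (−1.01 ± 0.28, adjusted p = 0.0268) and Ras minus Myc (1.02 ± 0.32, 0.028) passed. Ras minus Src did not (0.18 ± 0.32, 0.777). With all arrays Ras minus Myc also passed (2.35 ± 0.76, 0.0325), a call lost in 3 of the 15 fits that each left out 1 array.

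Ifit2 did not share this course. It measured 5.07, 5.22 and 5.20 in Myc, 7.39, 7.23 and 7.22 in NeuT, 8.46, 8.30 and 8.82 in Ras, 6.61, 6.62 and 6.57 in Src and 7.80, 7.61 and 7.69 in control arrays. No 2 groups overlapped, and the order was Ras, control, NeuT, Src and Myc. Neighbours in that order all differed by limma's adjusted p: Ras minus control was 0.83 ± 0.11 (adjusted p = 5.23e-05), NeuT minus control −0.42 ± 0.11 (0.0112), Src minus NeuT −0.68 ± 0.11 (0.000565) and Src minus Myc 1.44 ± 0.11 (5.91e-07). The difference of Myc from control, −2.54 ± 0.11, was the largest of any member in that comparison. The rise in Ras was 0.68 ± 0.09 without Ras array 3 (adjusted p = 7.61e-05).

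Rsad2 encodes viperin, a radical SAM enzyme that makes a chain-terminating nucleotide. It measured 5.84, 5.82 and 5.62 in Myc, 6.07, 5.72 and 6.15 in NeuT, 6.51, 5.96 and 9.10 in Ras, 5.74, 5.70 and 5.44 in Src and 6.46, 6.16 and 6.57 in control arrays. Myc and Src arrays lay below all control arrays, and NeuT arrays did too, narrowly. No contrast with control passed with all arrays. With Ras array 3 left out it fell in Myc (−0.64 ± 0.16, adjusted p = 0.00782) and in Src (−0.77 ± 0.16, 0.00303), while NeuT (−0.42 ± 0.16, 0.0723) and Ras (−0.16 ± 0.18, 0.549) did not pass. No step between neighbours in the order control, Ras, NeuT, Myc and Src passed.

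Oasl2 encodes a protein related to the 2′-5′ oligoadenylate synthetases. It measured 6.03, 5.71 and 6.09 in Myc, 6.12, 5.95 and 5.92 in NeuT, 5.89, 6.23 and 9.73 in Ras, 6.23, 6.19 and 5.91 in Src and 7.29, 7.63 and 7.34 in control arrays. The transformed arrays other than Ras array 3 spanned 5.71 to 6.23, all below the lowest control array. With all arrays no contrast passed, at differences of −1.47 ± 0.67 in Myc, −1.42 ± 0.67 in NeuT, −0.13 ± 0.67 in Ras and −1.31 ± 0.67 in Src. Once Ras array 3 was left out it fell in all 4 groups. The differences were −1.47 in Myc, −1.42 in NeuT, −1.36 in Ras and −1.31 in Src. Their SE lay between 0.14 and 0.15 and adjusted p between 3.57e-06 and 2.03e-05. The Ras value there was selected downward, since the array left out had the highest Oasl2 level. None of the 6 pairs of transformed groups passed for Oasl2, with or without that array.

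Irf7 encodes the transcription factor that amplifies interferon alpha production. It measured 5.56, 5.81 and 5.91 in Myc, 5.90, 6.03 and 5.92 in NeuT, 6.04, 5.81 and 8.10 in Ras, 5.69, 6.11 and 5.92 in Src and 6.11, 6.11 and 5.96 in control arrays. Apart from Ras array 3, the arrays lay in a narrow band of 5.56 to 6.11, in which all Myc arrays were below all control arrays and the other groups overlapped with control. No contrast with control passed with or without Ras array 3, and the differences without it lay between −0.30 in Myc (adjusted p = 0.0767) and −0.11 in NeuT (0.565).

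Ifitm3 encodes a membrane protein that hinders virus entry from endosomes, and it was the brightest member. It measured 11.93, 11.86 and 11.98 in Myc, 8.83, 9.06 and 9.24 in NeuT, 11.92, 11.89 and 12.57 in Ras, 12.57, 12.52 and 12.50 in Src and 11.90, 11.99 and 11.95 in control arrays. All NeuT arrays lay far below the rest, and all Src arrays lay above control. Against control it fell in NeuT (−2.90 ± 0.15, adjusted p = 8.3e-09) and rose in Src (0.59 ± 0.15, 0.0099), while Myc (−0.023 ± 0.15, 0.939) and Ras (0.18 ± 0.15, 0.418) did not pass. In the order Src, Ras, control, Myc and NeuT, only the last step passed with all arrays. Both calls held without Ras array 3.

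**Figure D2:**
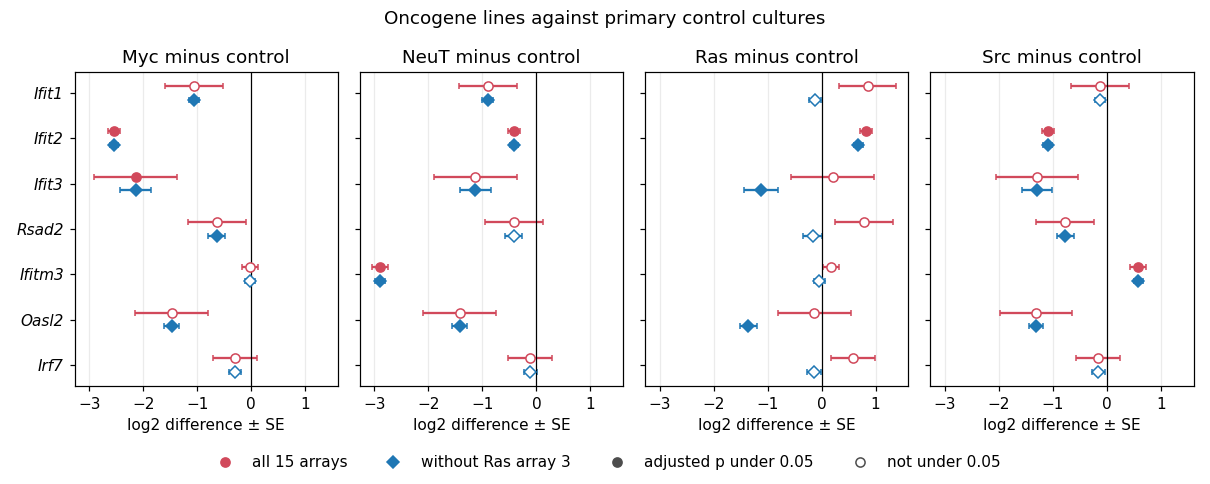
Log2 difference of each oncogene group from control, with its standard error, for 7 genes with all 15 arrays (red circles) and without Ras array 3 (blue diamonds), where filled symbols mark adjusted p under 0.05 by limma. Leaving out the array narrows the error of Oasl2 in Myc, for example, at an unchanged difference of −1.47, and turns the Ras difference of Ifit3 to −1.12.

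Counted over the members with all arrays, 2 of 7 fell and none rose in Myc lines, beside 12.7% of all genes that fell and 15.9% that rose. In NeuT lines 2 of 7 fell and none rose, beside 11.6% of all genes that fell and 15.2% that rose. In Ras lines 1 of 7 rose and none fell, beside 13.3% that rose and the 14.2% that fell. In Src lines 1 rose and 1 fell, beside 14.2% that rose and 12.2% that fell. Leaving out Ras array 3, 5 fell and none rose in Myc lines (13.3% of all genes fell and 16.5% rose) and in NeuT lines (11.9% fell and 15.6% rose). In the same fit 2 fell and 1 rose in Ras lines (13.6% fell and 12.4% rose), and 4 fell and 1 rose in Src lines (12.8% fell and 15.5% rose). The median difference over the members was −1.06 in Myc, −0.90 in NeuT and −0.77 in Src, with or without that array, and 0.59 in Ras with it and −0.14 without it. The median over all genes lay between 0.02 and 0.06 in these comparisons. The 4 comparisons share the same control arrays, so they are not independent of one another.

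Among the lines themselves, the members differed mainly through Ifit2, Ifitm3 and Ifit1. With all arrays, 1 of 7 was higher and 1 lower in Myc minus NeuT (6.99% of all genes higher and 7.95% lower), and 3 were higher in Ras minus Myc (11.8% of all genes higher). In Src minus Myc 2 were higher (7.57%), in Ras minus NeuT 3 were higher (11.6%), in Src minus NeuT 1 was higher and 1 lower (7.95% higher and 12.2% lower), and in Ras minus Src 2 were higher (12.1%). Ifit1 was higher without Ras array 3 in Ras and Src lines than in Myc lines, by 0.93 in each, and than in NeuT lines, by 0.78 and 0.77, all with adjusted p of 0.000146 or lower. Rsad2 was higher in Ras than in Src lines by 0.61 ± 0.18 without that array (adjusted p = 0.0257), and its call with all arrays (1.56) was lost in 11 of the 15 fits that each left out 1 array. Ifitm3 was lower in Ras than in Src lines without it (−0.63 ± 0.10, 0.000505), a difference that did not pass with all arrays (−0.40 ± 0.15, 0.061).

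Ras array 3 stood above the other 14 arrays for each member. Against the mean of Ras arrays 1 and 2 it was 15.6-fold higher for Ifit3, 12.7-fold for Oasl2, 7.59-fold for Ifit1, 7.26-fold for Rsad2, 4.53-fold for Irf7, 1.59-fold for Ifitm3 and 1.35-fold for Ifit2. Of the 7 members, 5 were at least 2-fold higher, beside 0.747% of all genes at least 2-fold higher and 0.271% at least 2-fold lower. The array is 1 sample and the members were chosen with this pattern known, so these are values with no test. Ifit3 ranked at position 5 among 19938 genes, Oasl2 at 8, Ifit1 at 18, Rsad2 at 21 and Irf7 at 34, while Ifitm3 and Ifit2 ranked at 306 and 897. For comparison, the same difference for control array 3 was at least 2-fold for 1 of 7 members, Ifit3, beside 3.44% of all genes at least 2-fold higher in that array.

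The gene with the largest difference in Ras array 3 was Rtp4, a receptor transporter protein that interferon induces, at 10.95, against 5.62 and 5.37 in Ras arrays 1 and 2. Phf11d, Sp100, Iigp1, Trim30a, Ifit3b, Usp18, Ddx60, Xaf1 and Trim30d followed among the genes that are no members, by between 3.21 and 4.71. Of the 20 genes with the largest rise in the array, 17 were members or stood on the interferon lists used here, and so were 30 of the first 50. Beside the 7 members, those lists held 38 effectors, 13 sensors and adaptors and 12 transducers. They also held 11 interferon gamma GTPases and class II genes and 6 negative regulators, out of 19938 genes measured. The lists were chosen with earlier results of these data known. This overlap and the counts by list below are therefore descriptions with no test. At the other end, the differences were −4.23 for Casd1, −3.83 for Slc43a3, −3.31 for Armcx3, −3.22 for Prdx4 and −2.41 for the keratin gene Krt18. Krt18 also differed between the other Ras arrays, at 9.83 in array 1 and 6.58 in array 2, against 5.80 in array 3.

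**Figure D3:**
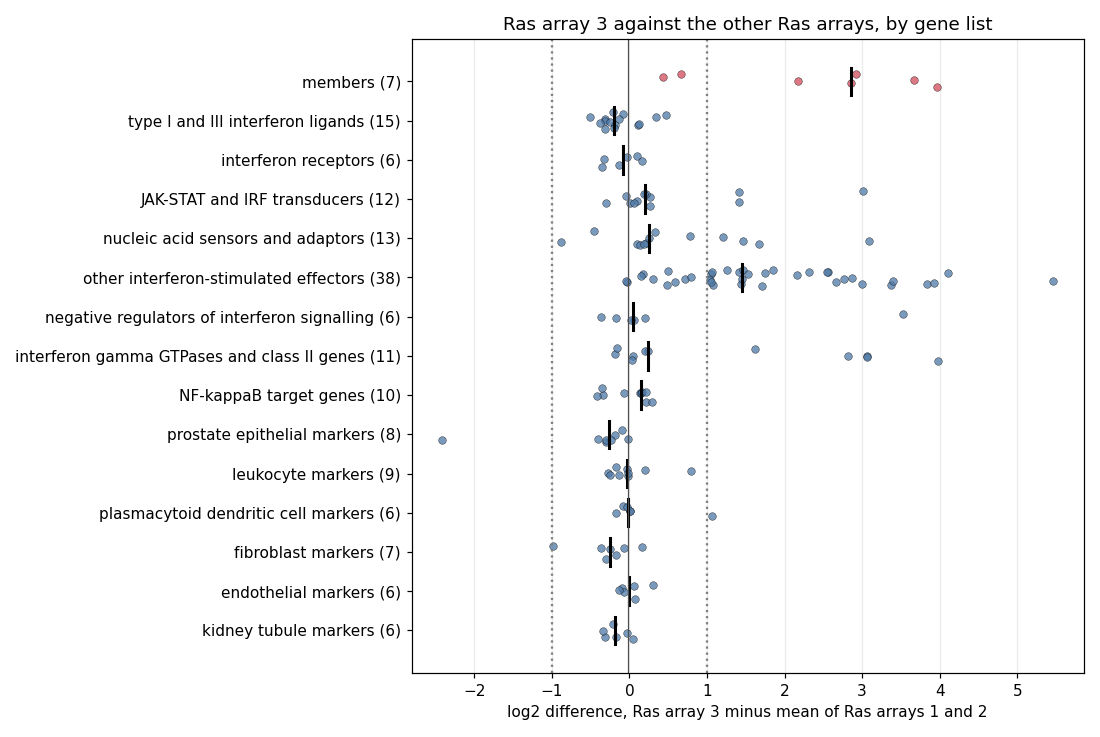
Log2 difference of Ras array 3 from the mean of Ras arrays 1 and 2, 1 point per gene, by list with the number measured in brackets, where black bars are list medians, the thin line is the median of all genes (−0.025) and dotted lines mark 2-fold. The members (red) had a median of 2.86 and the other interferon-stimulated effectors a median of 1.46, while ligands, receptors and NF-kappaB targets all stayed within 2-fold.

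The effectors, sensors and ligands differed in how many of them were higher in the array. Of 38 other interferon-stimulated effectors, 28 were at least 2-fold higher in Ras array 3, with a median difference of 1.46, beside a median of −0.025 over all genes. Of 11 interferon gamma GTPases and class II genes, 5 were at least 2-fold higher, namely the GTPases Iigp1, Gbp3, Irgm1, Gbp7 and Gbp5. Of 15 type I and III interferon ligands none was 2-fold higher, and their median difference was −0.20. The largest difference was 0.47 for Ifnb1, at 5.82 in Ras array 3, against 5.38 and 5.34 in Ras arrays 1 and 2. This was the highest Ifnb1 level of the 15 arrays, and the others lay between 5.02 and 5.47. The mean ligand level was dim, at 5.74 to 5.91 in Ras arrays, but single ligands varied. Over all arrays Ifna11 lay between 3.45 and 4.03, while Ifna5 (7.33 to 7.79) and Ifnl2 (7.19 to 7.88) lay above the median of all gene values. The probe sets of the interferon alpha genes may hybridise with near-identical copies of one another. Low ligand expression could not be told from its absence here. The 6 receptor genes differed by between −0.35 and 0.16.

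Markers of other cell types stayed within 2-fold in Ras array 3, apart from Bst2. Of 9 leukocyte markers none was 2-fold higher, and their mean was 5.46 in Ras array 3, against 5.50 and 5.41 in Ras arrays 1 and 2 and 5.45 to 5.70 in control arrays. Of 6 plasmacytoid dendritic cell markers 1 was 2-fold higher, Bst2, which interferon itself induces, and Siglech was at 6.12, against 6.09 and 6.14. None of 7 fibroblast, 6 endothelial or 6 kidney tubule markers was 2-fold higher. Of 10 NF-kappaB target genes, which nucleic acid sensing can also induce, none was 2-fold higher or lower, with differences between −0.42 and 0.29.

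Among signal transducers, Jak1 separated the Ras arrays most. Jak1, the kinase shared by the receptors for type I, II and III interferons, measured 7.50, 7.06 and 10.29 in Ras arrays 1, 2 and 3, 9.24 to 9.57 in Myc, 9.74 to 9.96 in NeuT, 9.77 to 9.79 in Src and 10.15 to 10.53 in control arrays. It was thus Ras arrays 1 and 2 that stood apart for Jak1, and Ras array 3 lay within the control range. Jak1 fell in Ras lines with all arrays (−2.11 ± 0.56, adjusted p = 0.0106) and without Ras array 3 (−3.11 ± 0.15, 6.74e-09). Stat2 measured 7.75 in Ras array 3, against 6.20 and 6.49 in the other Ras arrays, and Irf9 measured 7.34, against 5.86 and 5.99. Both were higher in Ras array 3 than in every other array, and these 3 were the transducers, out of 12 measured, that were at least 2-fold higher.

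Of 13 nucleic acid sensors and adaptors, 4 were at least 2-fold higher in Ras array 3, namely Ifih1, Ddx58, Dhx58 and Tlr3. For Tlr3 it was Ras arrays 1 and 2 that stood apart, at 6.48 and 6.67, against 8.36 to 8.67 in control arrays. At 7.79, Tlr3 in Ras array 3 lay below every Myc, NeuT, Src and control array. Ifih1 measured 9.92 there, against 6.89 and 6.76 in the other Ras arrays, 6.07 to 6.35 in Myc, 6.77 to 7.01 in NeuT, 6.47 to 6.62 in Src and 8.15 to 8.40 in control arrays. With all arrays Ifih1 fell in Myc (adjusted p = 0.0136) and Src lines (0.0400, and 0.0518 without control array 3) and did not pass in NeuT (0.0928) or Ras lines (−0.40 ± 0.56, 0.658). In the fit without Ras array 3 it fell in all 4 groups against control, at −2.03 in Myc, −1.38 in NeuT, −1.43 in Ras and −1.69 in Src. Ddx58 likewise fell in all 4, at −2.60 in Myc, −1.11 in NeuT, −1.05 in Ras and −1.48 in Src, and the adjusted p of both genes was 0.000204 or lower in each. With all arrays Ddx58 fell in Myc, NeuT and Src lines and not in Ras lines (−0.49 ± 0.33, adjusted p = 0.309). Usp18, which restrains signalling at the type I receptor and is itself induced by interferon, was 9.52 in Ras array 3, against 6.08 and 5.93. With all arrays it passed in no group, with adjusted p between 0.0552 in Myc and 0.481 in Ras lines, whereas it fell in all 4 groups without that array, at −1.78 in Myc, −0.88 in NeuT, −1.87 in Ras and −1.12 in Src (adjusted p of 0.000745 or lower).

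**Figure D4:**
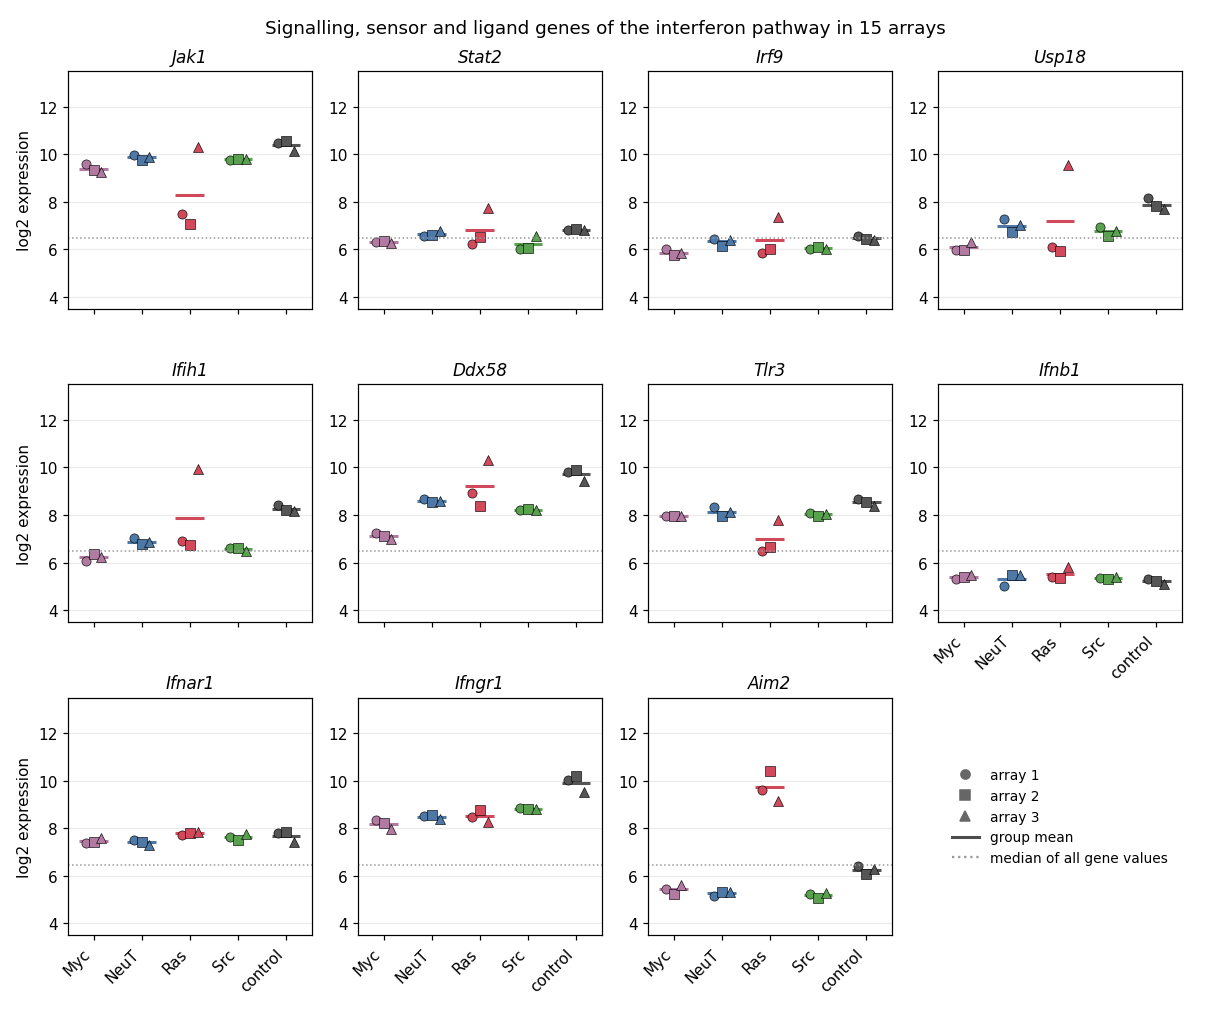
Log2 expression of 11 signalling, sensor and ligand genes in 15 arrays, drawn as for the members, with a dotted line at the median of all gene values. Jak1 was low in Ras arrays 1 and 2 (7.50 and 7.06) and at 10.29 in Ras array 3, Ifih1 and Usp18 were high in Ras array 3, Aim2 was high in all 3 Ras arrays, and Ifnb1 was dim throughout.

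The DNA sensor genes Aim2 and Cgas were high in all 3 Ras arrays. Aim2, the sensor of the AIM2 inflammasome, measured 9.63, 10.41 and 9.13 in Ras arrays, against 6.43, 6.06 and 6.28 in control arrays, and rose by 3.47 ± 0.23 (adjusted p = 4.75e-08). It fell in Myc (−0.83), NeuT (−0.99) and Src lines (−1.06). Cgas, which makes the messenger that activates STING, rose in Ras lines by 1.81 ± 0.20 (1.04e-05) and fell in Myc lines (−0.58 ± 0.20, 0.0454). Sting1 fell in 3 groups, at −2.27 in Myc, −2.33 in NeuT and −2.38 in Src lines, each with SE 0.18, and was 0.66 ± 0.18 higher in Ras lines (0.0142), a call that was not kept without Ras array 3 (0.57 ± 0.21, 0.057). Control array 3 was 0.81 below the mean of the other control arrays for Sting1, and the Ras difference was 0.39 ± 0.13 without it (adjusted p = 0.0310) and 0.30 ± 0.13 without both arrays (0.0997). The chemokine gene Ccl5 had the same signs, at −1.71 in Myc, −1.76 in NeuT, 0.44 in Ras and −1.99 in Src lines, all passing. Ras lines also had the lowest epithelial marker levels of the 5 groups, whose part in these differences was not tested.

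The receptors for interferon gamma were lower in every line. Ifngr1 differed by −1.76 in Myc, −1.44 in NeuT, −1.43 in Ras and −1.10 in Src lines, and Ifngr2 by −1.16 in Myc, −1.27 in NeuT, −1.03 in Ras and −0.52 in Src lines, all with adjusted p of 0.00636 or lower. Ifnar1 did not pass in any group with all arrays, but fell without control array 3 in Myc (−0.36 ± 0.10, adjusted p = 0.0126) and NeuT lines (−0.41 ± 0.10, 0.00525), and Ifnar2 passed in NeuT alone, where it fell (−0.74 ± 0.15, 0.00152). Of the 38 other effectors, 3 rose and 4 fell in Myc, 1 rose and 7 fell in NeuT, 4 rose and 1 fell in Ras and 2 rose and 3 fell in Src lines with all arrays. After leaving out Ras array 3 these counts were 4 and 15 in Myc, 2 and 16 in NeuT, 2 and 12 in Ras and 2 and 12 in Src lines, beside the shares of all genes given above. Rtp4 and Samd9l were among those that fell in Ras lines without that array (−1.57 ± 0.24, adjusted p = 0.000288, and −1.82 ± 0.34, 0.00116), and neither passed with it (0.890 and 0.364). Trim30a rose in Ras lines with all arrays (2.53, adjusted p = 0.0233) and, at a smaller difference, without Ras array 3 (1.23 ± 0.35, 0.0208). The second call rested mainly on Ras array 1, at 6.99. Ras array 2, at 5.35, lay within the control range of 4.68 to 5.43, whose upper end was control array 3. Control arrays 1 and 2 were at 4.68 and 4.73, and no Myc, NeuT or Src array exceeded 4.84.

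The genes whose pattern over the 15 arrays was most like the mean of the members were Sp100 (Pearson's r = 0.959), Ddx60 (0.943), Psmb8 (0.942), Ifit3b (0.941), Trim21 (0.936), Gbp3 (0.929), Gbp7 (0.929), Herc6 (0.923), Gbp9 (0.919) and Ube2l6 (0.916). These values are descriptions, since 1 array carries much of the spread. Over the 14 arrays without Ras array 3 they lay between 0.671 for Ube2l6 and 0.866 for Psmb8 and Sp100. Against the mean of the other 6 members, Ifit1 had the highest r of the 7, at 0.971 over 15 arrays and 0.907 over 14, and Ifitm3 the lowest, at 0.211 and 0.039. Ifit2 and Ifitm3 had an r of −0.078 with each other over 15 arrays.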

How the data were processed

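RNA of 15 arrays was measured in 5 groups of 3, and the deposited series table holds the authors' log2 expression values, 1 per probe set and array. The submitters' processing notes name RMA and Affymetrix Expression Console 1.1. No source used here gives the background settings, a genome build or the summary level. Array medians of the deposited log2 values lay between 6.19 and 6.32, and no scanner intensities were used. With 3 arrays a group, the precision is limited. Of 35556 probe sets, 21789 had 1 gene in the platform annotation, 1621 had several and 12146 had none. Genes were read from single-gene probe sets, the brightest by mean for the 999 genes with several, which gave 19938 genes.

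A model of 5 group means over all 15 arrays was fitted in limma 3.58.1 under R 4.3.3 with lmFit and eBayes, and p-values of each of 10 contrasts were adjusted by Benjamini-Hochberg over all 19938 genes. A gene was called at adjusted p under 0.05, two-sided, with no minimum fold. The p-values measure the spread between these arrays, since no source says that the control arrays came from separate animals. On simulated data for Ras minus control (19938 genes, 200 changed per fold), 73% of 1.5-fold, 95% of 2-fold and 99.5% of 4-fold changes were recovered. Of the calls made, 3.31%, 5.47% and 5.69% were false. The simulated spread was taken within the Myc, NeuT, Src and control groups, without the Ras arrays. Many more genes were called in the real contrast (5469) than were changed here. These shares are therefore not the recovery of the real Ras contrast, and they do not carry over to members with a wide spread in the real fit. Oasl2, for example, did not pass in Myc at −1.47 ± 0.67 (limma adjusted p = 0.127).

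The members and all gene lists were chosen with earlier results of these data known. Named genes were the members, up to 5 genes of each list with the largest called difference from control, up to 5 with the largest difference in Ras array 3, the 10 genes most like the members, and the genes at the ends of the Ras array 3 ranking. Alternatives were median centring, quantile normalization, the mean of a gene's probe sets, a filter on dim genes, fits on the compared groups alone, array weights, the replicate number as a block, a 2-fold minimum and leaving out each array. Leaving out Ras array 3 and control array 3 together was added after seeing the data, as was leaving out control array 3 for the genes of the lists. Same-numbered arrays of different groups had correlations of their deviations between −0.085 and 0.12, with 3 of 30 above 0.1. For arrays with different numbers they lay between −0.13 and 0.12, with 1 of 60 above 0.1. No strong pairing by number was seen, and a weak link between same-numbered arrays was not excluded.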

Additional observations from a re-analysis of the deposited data

Results flagged for a closer look

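Probe sets assigned to several genes entered no test, and 6 of them that cover interferon response genes were at least 2-fold above the highest control array in Ras array 3. The probe set of Isg15, a ubiquitin-like modifier, and Gm9706 measured 9.02 in Ras array 3, against 5.89 and 5.51 in Ras arrays 1 and 2 and at most 6.05 in the other arrays. Those of Oas1a and Oas1g, of Irgm2 and Igtp, and of Sp100 and its predicted copies measured 9.39, 9.58 and 9.43 there, against at most 6.55, 7.59 and 5.70 in control arrays. Those of Gbp2 and Gbp2b and of a group of Gbp genes with Gbp6 measured 8.06 and 6.97, against at most 6.71 and 5.45 in control arrays. Which gene of each probe set gave the signal was not tested.

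Ifit2 was called in opposite directions against control, higher in Ras lines and lower in the other 3. The differences between lines also passed by limma's adjusted p, at 3.37 for Ras minus Myc, 1.24 for Ras minus NeuT and 1.92 for Ras minus Src. Ifitm3 was called higher in Src and lower in NeuT lines, and Src minus NeuT was 3.49.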

How the results depend on the processing

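The counts of members called against control depended on Ras array 3 and on how the spread was estimated. Leaving out each array in turn gave 1 to 5 members in Myc, 2 to 5 in NeuT, 1 to 3 in Ras and 2 to 5 in Src lines, each highest without Ras array 3. Between lines it gave 2 to 3 in Myc minus NeuT, 2 to 5 in Ras minus Myc, 2 to 4 in Ras minus NeuT, 1 to 5 in Ras minus Src, 2 to 3 in Src minus Myc and 2 to 3 in Src minus NeuT. All genes called ranged over 4770 to 6025 (Myc), 4342 to 5602 (NeuT), 4907 to 5470 (Ras) and 4062 to 5742 (Src) against control, and over 2087 to 3685 (Myc minus NeuT), 4718 to 6370 (Ras minus Myc), 4558 to 6269 (Ras minus NeuT), 4177 to 6021 (Ras minus Src), 2746 to 4544 (Src minus Myc) and 2958 to 4716 (Src minus NeuT). Genes at least 2-fold apart in Ras array 3 were 203, and 185 to 332 when 1 of the other Ras arrays was left out.

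The percentages here are shares of all genes tested that were called in either direction in the same fit. Fits on the compared groups alone called 5 members in Myc (24.1%), 4 in NeuT (23.4%) and 5 in Src lines (22.6%), 1 in Ras minus Myc (24.1%), 4 in Src minus Myc (23.9%) and 1 in Ras minus Src (22.2%), and 3567 genes in Ras minus control. Array weights called 4 members in Myc (36.0%) and 4 in NeuT lines (35.3%), and 4584 genes in Myc minus NeuT. Median centring left 1 member in Myc (32.4%) and NeuT lines (29.7%) and in Ras minus Src (27.9%), quantile normalization left 1 in Myc (31.3%), and the filter on dim genes left 1 in Myc (48.5%) and 1 in Ras minus Myc (48.2%). A 2-fold minimum left 1 member in NeuT, 0 in Ras and 1 in Src lines, and 1 in Src minus Myc and Src minus NeuT. It left 1288 (Myc), 1182 (NeuT), 1412 (Ras) and 886 (Src) genes against control, and 463 (Myc minus NeuT), 1227 (Ras minus Myc), 619 (Src minus Myc), 1191 (Ras minus NeuT), 709 (Src minus NeuT) and 1094 (Ras minus Src) between lines. The cause of these changes was not tested. Of these settings, only the fits on the compared groups and the filter on dim genes used a smaller set of arrays or genes.

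Without Ras array 3 and control array 3, 5 members were called in Myc (29.5%), 5 in NeuT (27.0%), 3 in Ras (26.7%) and 5 in Src lines (27.4%), and 4 in Src minus Myc (25.1%). Ras differences then turned sign against control for Ifit1 (−0.077), Ifit3 (−0.71), Rsad2 (−0.076), Ifitm3 (−0.041) and Irf7 (−0.19), and for Ifitm3 against Myc (−0.019), Irf7 against NeuT (−0.025) and Oasl2 against Src (−0.049). Median centring turned Ifitm3 in Myc minus control to 0.056. The replicate block gave 2, 2, 1 and 2 members in Myc, NeuT, Ras and Src lines against control, as without it, and added the call of Ifitm3 in Ras minus Src (−0.40, adjusted p = 0.0444).

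Leaving out single arrays also turned some uncalled differences of single members. Against control, the Ras differences ranged over −0.12 to 1.41 for Ifit1, −1.12 to 0.97 for Ifit3, −0.16 to 1.41 for Rsad2, −0.042 to 0.30 for Ifitm3, −1.36 to 0.56 for Oasl2 and −0.14 to 1.01 for Irf7, each lowest without Ras array 3. The same array gave the lower end of Ifitm3 in Ras minus Myc (−0.019 to 0.32), Irf7 in Ras minus NeuT (−0.025 to 1.12) and Oasl2 in Ras minus Src (−0.049 to 1.87). Ifitm3 in Myc minus control ranged over −0.051 to 0.0098, Oasl2 in Myc minus NeuT over −0.12 to 0.066 and Irf7 in Src minus NeuT over −0.15 to 0.066.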
